A study of Mus musculus with 24 samples.

Results

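The genes described here are 43 members of the cytochrome P450 families 1 to 4 measured in mouse liver during ischemia. They were chosen by symbol: every measured gene whose RefSeq accession led to a symbol starting with Cyp1, Cyp2, Cyp3 or Cyp4, then a subfamily letter and a number, apart from Cyp2b9, Cyp2b10, Cyp2b13 and Cyp2c55. They are 43 of the 14351 genes that could be named on the array, and each was read by a single probe set. The reference annotation holds 72 symbols of that form, so the 43 are not the whole family. Cyp4a12a was measured but lies outside the rule because its symbol ends in a letter.

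The livers came from adult mice of 12 to 14 months and young mice of 4 to 5 weeks. In each age, groups of mice had partial hepatic ischemia for 30, 60 or 90 minutes, in which blood flow to part of the liver is stopped, and a further group had a sham operation. Each of the 8 groups had 3 arrays, 24 in all, made from RNA of the median and left lobes. The titles of the ischemia samples write a 0 after the ischemia time, set off by a slash, which the labels do not explain. The labels used here give no strain or sex.

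Cytochrome P450 enzymes are heme proteins of the endoplasmic reticulum that insert an oxygen atom into lipophilic molecules, with electrons passed on from P450 reductase. In hepatocytes, families 1 to 3 are best known for oxidising drugs, toxins and steroids, and family 4 for hydroxylating fatty acids at their far end. The nuclear receptors and transcription factors AHR, CAR, PXR and PPAR alpha control many of these genes, and several are expressed mainly in the hepatocytes around the central vein, where oxygen is lowest.

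The deposited value of a gene on an array is a ratio whose denominator is that gene's sham mean in the same age. The ratio is 1 on average in sham of each age, so it holds no brightness: levels of different genes, and of adult and young sham liver, cannot be set against each other, and the labelled tissue could not be checked by the level of its markers. Changes are given as log2 fold change ± SE from limma, ischemia over sham of the same age, and a gene was counted as risen or fallen where the Benjamini-Hochberg adjusted p over all 14351 genes was under 0.05. The p-values rest on a single spread for each gene, pooled within all 8 groups and moderated by limma. A gene's SE is therefore the same in every comparison with sham, whichever groups were more spread. Having 3 arrays a group limits the precision. Ischemia groups of one age share their sham arrays. In bulk liver, fewer cells of a type and less RNA per cell cannot be told apart.

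The largest movement of the P450 genes was in adult liver at 60 minutes, where 8 of the 43 fell and none rose. The genes that fell were Cyp1a2, Cyp2a12, Cyp2c29, Cyp2d10, Cyp2j5, Cyp2r1, Cyp3a11 and Cyp3a13, so they were spread over families 1, 2 and 3. At 90 minutes in adult liver Cyp2j5, Cyp2r1 and Cyp3a13 fell and Cyp2d34 rose. No member passed the test in adult liver at 30 minutes or in young liver at any time, and in none did the response differ between the ages past the threshold.

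**Figure D1:**
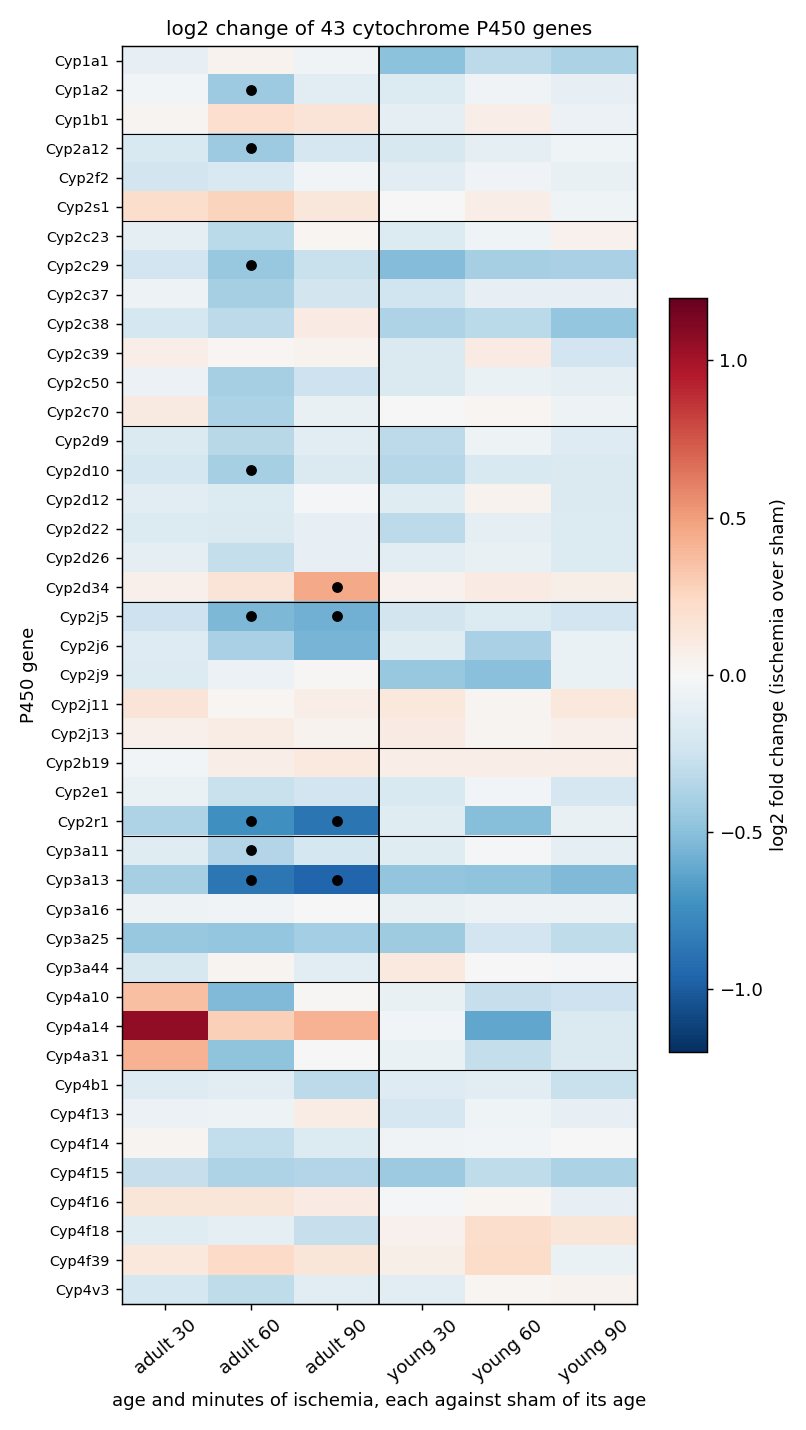
Log2 fold change of each of the 43 P450 genes (rows, grouped by subfamily) at 30, 60 and 90 minutes of ischemia over sham of the same age, adult on the left and young on the right. Black dots mark the 12 values that passed an adjusted p of 0.05, 8 of them in adult liver at 60 minutes and 4 at 90 minutes.

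In adult liver at 60 minutes, 18.6% of the members passed the test, against 11.9% of all genes. All 8 fell, against 9.78% of all genes that fell and 2.15% that rose. The member median was -0.29 on the log2 scale and the median of all genes -0.05. Below 0 were 31 of 43 members (72.1%, against 58.7% of all genes). In 16 members all 3 ischemia arrays lay below all 3 sham arrays, and in 3 they lay above, where 25.9% and 11.1% of all genes did so. With each array centred on its own median, 4 members fell and Cyp4f39, which acts in skin lipid synthesis, rose at a log2 change of 0.30. That fit called 9.23% of all genes.

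At 90 minutes in adult liver, 9.30% of the members passed, against 7.45% of all genes, with 3 falls beside 6.28% of all genes and 1 rise beside 1.17%. The member median was -0.09, against -0.04 over all genes. All ischemia arrays lay below sham in 10 members and above in 3, where 26.4% and 12.8% of all genes did. The share of members below sham was thus no higher than that of all genes at this time.

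Cyp2r1, Cyp2j5 and Cyp3a13 were the members that fell at both 60 and 90 minutes in adult liver. Because the results turn on them, the 250 bases before the start site of each gene's first promoter entry are shown. The sequences are from RefSeq on GRCm38.p6, printed 5′ to 3′ on the gene's strand, which is the minus strand for all 3. The Cyp2r1 window is chr7:114562973-114563222, that of Cyp2j5 chr4:96664120-96664369 and that of Cyp3a13 chr5:137921620-137921869. The annotated genes reach to 114563048, 96664171 and 137925610, into or past these windows, so other start sites are possible and were not looked at. Capitals mark matches on either strand to AGGTCA (the half-site of many nuclear receptors), TATAAA (the TATA box), CCAAT (the motif of the factor NF-Y) and GCGTG (the core that the AHR dimer binds).
Cyp2r1: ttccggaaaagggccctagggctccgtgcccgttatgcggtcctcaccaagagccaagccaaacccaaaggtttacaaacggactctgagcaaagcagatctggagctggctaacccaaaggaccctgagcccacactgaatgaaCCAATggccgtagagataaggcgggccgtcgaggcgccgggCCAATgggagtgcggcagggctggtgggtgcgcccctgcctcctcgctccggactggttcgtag
Cyp2j5: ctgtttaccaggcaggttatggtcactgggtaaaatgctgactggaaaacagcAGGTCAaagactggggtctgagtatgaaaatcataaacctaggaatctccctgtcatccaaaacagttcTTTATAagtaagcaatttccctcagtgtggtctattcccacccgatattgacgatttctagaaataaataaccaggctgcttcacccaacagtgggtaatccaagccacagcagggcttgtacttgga
Cyp3a13: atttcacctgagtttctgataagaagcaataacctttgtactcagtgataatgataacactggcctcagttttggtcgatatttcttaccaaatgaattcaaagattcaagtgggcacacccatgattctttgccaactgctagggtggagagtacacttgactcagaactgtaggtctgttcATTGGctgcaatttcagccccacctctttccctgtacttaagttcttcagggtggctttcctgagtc
The Cyp2r1 window has a GC content of 61.6%, against 44.0% for Cyp2j5, 42.8% for Cyp3a13 and a median of 49.4% over the 36 members with a promoter entry. It holds 2 CCAAT matches and no TATAAA. The Cyp2j5 window holds 1 AGGTCA and 1 TATAAA, the latter on the strand opposite to the gene (TTTATA as printed). The Cyp3a13 window holds 1 CCAAT alone of the motifs searched, also on the opposite strand (ATTGG as printed). The half-site AGGTCA is in 9 of the 36 member windows and in 13.8% of all 27025 promoters of that length, TATAAA in 14 and 13.0%, CCAAT in 14 and 34.5%, and GCGTG in 8 and 28.2%. These are matches of letters and not sites shown to be bound. Cyp2c23, Cyp2d12, Cyp2d22, Cyp2d34, Cyp4a10, Cyp4a14 and Cyp4a31 had no promoter entry and are not among the 36.

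Cyp2r1, the main microsomal vitamin D 25-hydroxylase, had the lowest adjusted p of the members, at 90 minutes in adult liver. Its ratios in adult liver were 0.994, 0.993 and 1.01 in sham, 0.659, 0.742 and 0.944 at 30 minutes, 0.621, 0.637 and 0.542 at 60 minutes and 0.591, 0.598 and 0.458 at 90 minutes. Every adult ischemia array lay below every adult sham array. Cyp2r1 fell at 60 minutes (log2 fold change -0.74 ± 0.17, limma adjusted p = 0.0294) and at 90 minutes (-0.88 ± 0.17, adjusted p = 0.0123), and stood at -0.37 ± 0.17 at 30 minutes (adjusted p = 0.472). In young liver the ratios were 0.832, 0.87 and 1.30 in sham, 0.811, 0.982 and 0.865 at 30 minutes, 0.673, 0.859 and 0.564 at 60 minutes and 0.949, 1.01 and 0.813 at 90 minutes. The young sham arrays spread more widely than the adult ones and overlapped every young ischemia group. The fall at 90 minutes passed in 4 of 6 fits that left out 1 array, at -0.94 to -0.75, and was lost without adult sham replicate 3 or adult 90-minute replicate 1, with adjusted p up to 0.0763.

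Cyp3a13, a family 3 enzyme of liver and intestine, had the largest log2 fall at both times. Its adult ratios were 0.841, 0.916 and 1.24 in sham, 0.59, 0.726 and 0.974 at 30 minutes, 0.889, 0.465 and 0.379 at 60 minutes and 0.542, 0.549 and 0.448 at 90 minutes. One 60-minute array lay within the sham range, so this was the only one of the 8 genes whose 60-minute and sham arrays overlapped. The 90-minute arrays were all below sham. The gene fell by 0.87 ± 0.24 at 60 minutes (limma adjusted p = 0.0338) and by 0.95 ± 0.24 at 90 minutes (adjusted p = 0.0268) on the log2 scale. Young ratios were 0.945, 0.964 and 1.09 in sham, 0.651, 0.902 and 0.636 at 30 minutes, 0.637, 0.77 and 0.738 at 60 minutes and 0.724, 0.786 and 0.586 at 90 minutes. All 9 young ischemia arrays lay below all young sham arrays, with log2 changes of -0.47, -0.49 and -0.53 (each ± 0.24) and adjusted p of 0.613, 0.487 and 0.507. Leaving out 1 array at a time moved the adult log2 change at 60 minutes between -1.23 and -0.62, and the call was kept in 1 of 6 such fits.

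Cyp2j5, an arachidonic acid epoxygenase of liver and kidney, had adult ratios of 0.979, 0.893 and 1.13 in sham, 0.77, 0.736 and 1.04 at 30 minutes, 0.79, 0.712 and 0.569 at 60 minutes and 0.724, 0.671 and 0.617 at 90 minutes. The 60- and 90-minute arrays were below every sham array, while the 30-minute arrays overlapped them. Cyp2j5 fell at 60 minutes (-0.54 ± 0.15, limma adjusted p = 0.0338) and at 90 minutes (-0.57 ± 0.15, adjusted p = 0.0309). In young liver its log2 changes were -0.22, -0.16 and -0.23 at 30, 60 and 90 minutes (each ± 0.15), with arrays overlapping sham at each time. The other 4 Cyp2j genes did not pass. The nearest was Cyp2j6, whose ratios were 0.65, 0.756 and 0.635 in adult liver at 90 minutes, against 0.985, 0.999 and 1.02 in adult sham (-0.56 ± 0.17, adjusted p = 0.0532). Cyp2j9 had its lowest values in young liver, at -0.46 ± 0.17 after 30 minutes and -0.50 ± 0.17 after 60 minutes, with adjusted p of 0.39 and 0.309. Cyp2j11 and Cyp2j13 stood at 0.12 ± 0.08 and 0.10 ± 0.08 in young liver at 30 minutes (limma adjusted p 0.719 and 0.742).

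**Figure D2:**
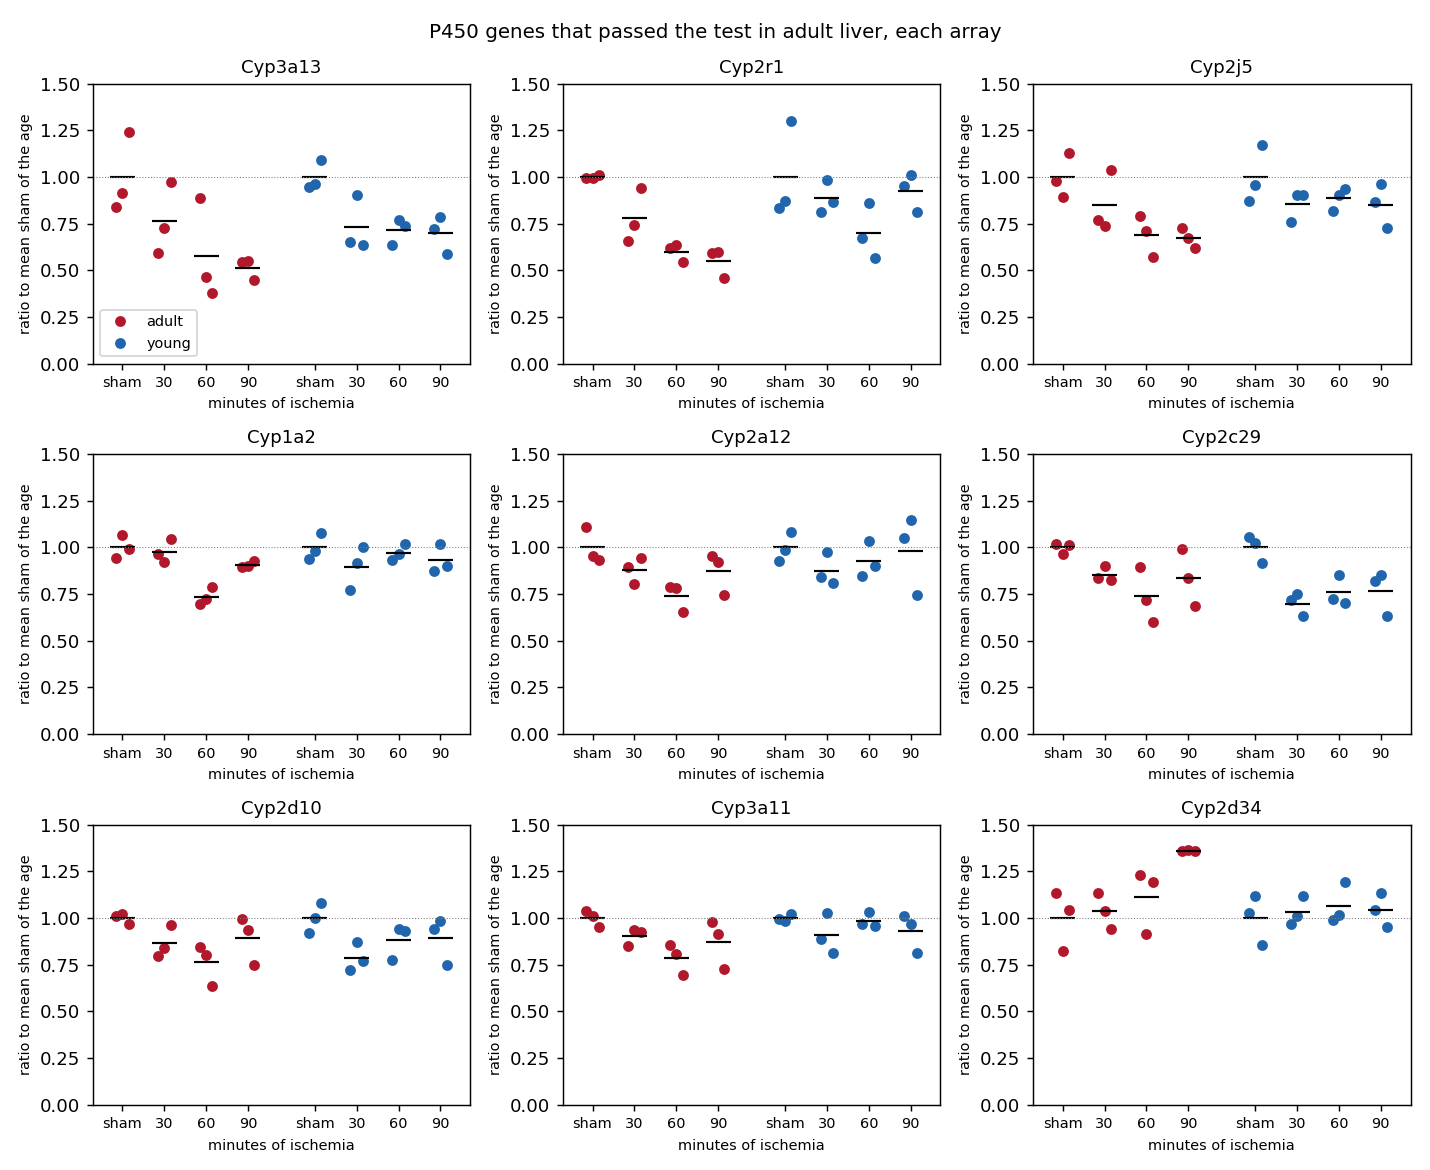
Ratio to the mean sham of the age (vertical axis) on each array for the 9 P450 genes that passed the test in adult liver, by minutes of ischemia, adult in red on the left of each panel and young in blue on the right; bars are group means. Adult Cyp2r1 arrays at 60 and 90 minutes all lay at or below 0.637, while the Cyp2d34 arrays at 90 minutes lay together at 1.36.

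Among family 1 genes, which act on aromatic compounds and are classic targets of AHR, Cyp1a2 fell in adult liver at 60 minutes. Its ratios were 0.696, 0.725 and 0.791 at 60 minutes, against 0.943, 1.06 and 0.993 in adult sham (-0.44 ± 0.09, limma adjusted p = 0.0282). The arrays did not overlap. At 90 minutes it stood at 0.896, 0.901 and 0.927, all below sham but at only -0.14 ± 0.09 (adjusted p = 0.333). Cyp1a1 moved elsewhere: its young ischemia arrays were 0.722, 0.659 and 0.757 at 30 minutes, 0.826, 0.76 and 0.83 at 60 minutes and 0.777, 0.733 and 0.796 at 90 minutes, against 0.915, 1.03 and 1.06 in young sham. All 9 were below young sham, but none of the 3 comparisons passed (log2 changes -0.49, -0.31 and -0.38, each ± 0.13, with adjusted p of 0.163, 0.442 and 0.305). In adult liver Cyp1a1 overlapped sham at all 3 times. Cyp1b1 stood at log2 changes between -0.12 and 0.21 across the 6 comparisons. Of the receptors, Ahr itself fell in adult liver at 60 minutes (-0.97 ± 0.23, adjusted p = 0.0295), as did Ugt1a6a, 1 of 3 other AHR targets measured.

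In the Cyp2c genes, several of which make epoxides from arachidonic acid, 1 of 7 fell. Cyp2c29 had ratios of 0.896, 0.721 and 0.599 in adult liver at 60 minutes, against 1.02, 0.967 and 1.01 in adult sham (-0.46 ± 0.14, limma adjusted p = 0.0436). In young liver all 9 of its ischemia arrays lay below the young sham arrays, at log2 changes of -0.52, -0.40 and -0.39 (each ± 0.14), and none passed (adjusted p 0.184, 0.369 and 0.347). Cyp2c37 and its close relative Cyp2c50 each stood at -0.40 ± 0.13 in adult liver at 60 minutes and just missed the threshold (adjusted p = 0.0543 for both). Their array values ran side by side, 0.818, 0.805 and 0.658 for Cyp2c37 and 0.823, 0.803 and 0.664 for Cyp2c50, and probes for such near-identical genes may read both. Cyp2c70, which makes the muricholic acids of mouse bile, stood at -0.38 ± 0.22 at that time, and the remaining Cyp2c genes between -0.32 and 0.02. Of these, Cyp2c38 was at -0.46 ± 0.24 in young liver at 90 minutes (limma adjusted p = 0.617). Its adult minus young difference at 90 minutes was 0.56 ± 0.35 (adjusted p = 0.512).

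Cyp2d10 was the one Cyp2d gene to fall, with ratios of 0.845, 0.804 and 0.636 in adult liver at 60 minutes, against 1.01, 1.02 and 0.97 in adult sham (-0.40 ± 0.13, limma adjusted p = 0.0494). Cyp2d34 was the one member to rise in any comparison. It read 1.36 on each of the 3 adult 90-minute arrays, against 1.13, 0.823 and 1.04 in adult sham (0.46 ± 0.13, adjusted p = 0.0414), and its 90-minute arrays lay above every sham array. Leaving out any 1 of the arrays compared, other than adult sham replicate 1, ended that call, at adjusted p up to 0.136. Cyp2d22 stood between -0.31 and -0.10 in the 6 comparisons, and none passed.

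Cyp2a12 had ratios of 0.79, 0.782 and 0.653 in adult liver at 60 minutes, against 1.11, 0.956 and 0.935 in adult sham, and fell (-0.43 ± 0.14, limma adjusted p = 0.0483). The arrays did not overlap. Cyp2e1, which oxidises ethanol and paracetamol, had ratios of 0.93, 0.852 and 0.717, all below the adult sham arrays, but did not pass (-0.27 ± 0.10, adjusted p = 0.0652). Cyp2f2, known for activating naphthalene, stood at -0.18 ± 0.10 and Cyp2s1, an enzyme mostly of epithelia outside the liver, at 0.27 ± 0.10, with its 3 arrays above sham and an adjusted p of 0.0769. Cyp2b19, described in mouse skin, stood at 0.08 ± 0.11.

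In family 3, Cyp3a11, the main PXR-induced drug oxidase of mouse liver, had ratios of 0.856, 0.806 and 0.692 in adult liver at 60 minutes, against 1.04, 1.01 and 0.953 in adult sham, and fell (-0.35 ± 0.11, limma adjusted p = 0.0448). In young liver it stood at -0.14, -0.02 and -0.11 at 30, 60 and 90 minutes (each ± 0.11). Cyp3a25 was at -0.45 ± 0.16 in adult liver at 30 minutes, the lowest member there, and at -0.46 ± 0.16 at 60 minutes, where its adjusted p was 0.0556. Cyp3a16 and Cyp3a44 stood between -0.19 and 0.11 over the 6 comparisons.

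The Cyp4a genes, fatty acid omega-hydroxylases that are standard targets of PPAR alpha, were the most variable members between arrays of one group. The pooled SD of the log2 ratio within groups was 0.871 for Cyp4a14, 0.458 for Cyp4a31 and 0.454 for Cyp4a10, against a median of 0.165 over the members. Cyp4a14 ran at 0.965, 1.82 and 0.211 in adult sham, 1.28, 1.52 and 1.75 at 30 minutes, 1.15, 0.976 and 0.599 at 60 minutes and 0.847, 0.857 and 1.22 at 90 minutes. In young liver it ran at 1.22, 0.61 and 1.17 in sham, 1.14, 1.27 and 0.561 at 30 minutes, 0.18, 1.10 and 1.21 at 60 minutes and 0.865, 0.801 and 0.884 at 90 minutes. The adult sham arrays reached above and below every adult ischemia array. All 3 genes were low on the same arrays: adult sham replicate 3 read 0.495 for Cyp4a10 and 0.54 for Cyp4a31, and young 60-minute replicate 1 read 0.446 and 0.423. The largest member change from sham in any comparison, 1.06 ± 0.63 for Cyp4a14 in adult liver at 30 minutes, had an adjusted p of 0.525. At 60 minutes in adult liver Cyp4a10 was tight at 0.648, 0.654 and 0.596, but its sham arrays were not (1.12, 1.39 and 0.495), and the change was -0.53 ± 0.33 (adjusted p = 0.266). Of 8 other PPAR alpha targets 2 fell there and 7 were below 0 (median -0.36), the peroxisomal enzyme Ehhadh (-0.63) among those that fell.

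**Figure D3:**
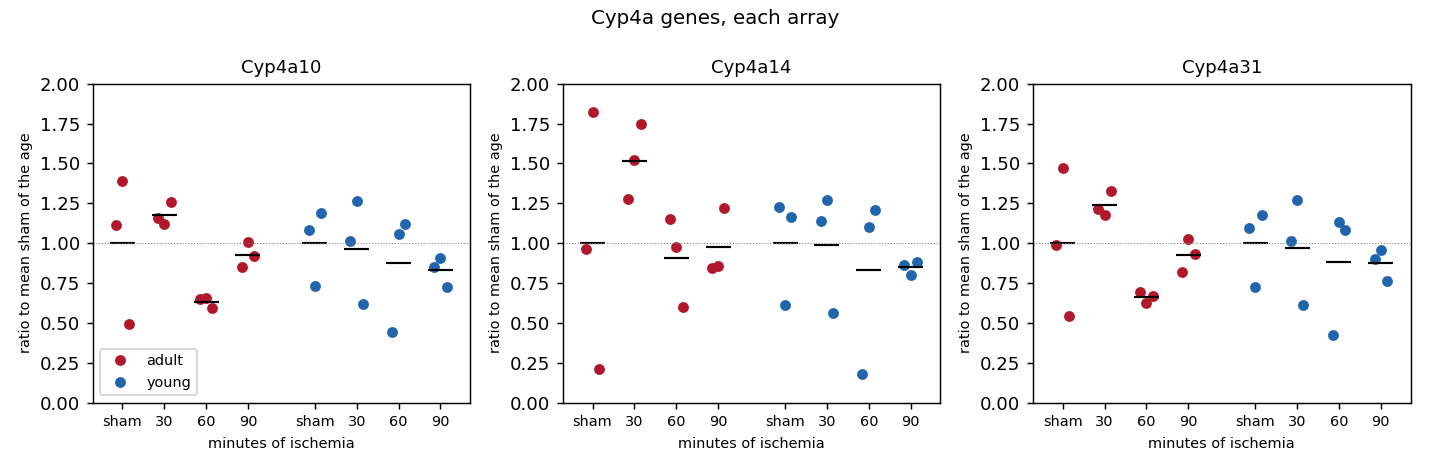
Ratio to the mean sham of the age (vertical axis) for Cyp4a10, Cyp4a14 and Cyp4a31 on each array by minutes of ischemia, adult in red on the left of each panel and young in blue on the right; bars are group means. Adult sham arrays of Cyp4a14 run between 0.211 and 1.82, as wide as the ischemia arrays.

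No other Cyp4 gene passed in any comparison. Cyp4f15 came nearest, with all arrays below sham in 5 of the 6 comparisons, including log2 changes of -0.37 ± 0.13 and -0.36 ± 0.13 in adult liver at 60 and 90 minutes (limma adjusted p 0.0634 and 0.0906) and -0.44 ± 0.13 in young liver at 30 minutes (adjusted p = 0.24). Cyp4f18, which inactivates leukotriene B4 in mouse neutrophils, stood at 0.21 ± 0.12 in young liver at 60 minutes with its arrays above sham, and at -0.27 ± 0.12 in adult liver at 90 minutes. Cyp4f14 was at -0.29 ± 0.13 in adult liver at 60 minutes, Cyp4v3 at -0.30 ± 0.13, Cyp4f13 at -0.06 ± 0.08 and Cyp4b1, best known from lung, at -0.13 ± 0.18.

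At the earliest adult time and in young liver no member passed. In adult liver at 30 minutes limma called 0 of 43 members and 0% of all genes. An unadjusted p under 0.05 was found in 5 members (11.6%, against 10.4% of all genes), the median was -0.10 against -0.03 over all genes, and 7 members had all arrays below sham and 2 above, where 6.29% and 5.17% of all genes did. In young liver the calls were 0 of 43 at each time, against 0.0557% of all genes at 30 minutes, 0.0279% at 60 minutes and 0.181% at 90 minutes.

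In young liver at 30 minutes, 35 of 43 members were below 0 (81.4%, against 56.6% of all genes). The median was -0.14, against -0.02 over all genes. The member median was -0.21, -0.03 and -0.23 on those arrays and that of 14 hepatocyte markers -0.22, -0.03 and -0.30, with 13 of the 14 markers below 0 in the comparison. All 8 stellate cell markers were also below 0 (median -0.21), as were 7 of 8 endothelial cell markers (median -0.22). All 5 cholangiocyte markers (median -0.08) and 7 of 12 Kupffer cell markers (median -0.02) were below 0 too. The part of any of these lists in the P450 values was not tested. All arrays lay below sham in 13 members (30.2%) and above in 1, where 9.49% and 5.31% of all genes did. An unadjusted p under 0.05 was found in 9 members (20.9%, against 8.36% of all genes). At 60 minutes the median was -0.06, 7 had such a p (16.3%, against 10.4% of all genes), and 6 members were below and 2 above, where 7.78% and 5.54% of all genes were. At 90 minutes the median was -0.10, and 35 were below 0 (81.4%, against 57.6% of all genes). Such a p was found in 5 (11.6%, against 9.0% of all genes). All arrays lay below sham in 8 members and above in 1, where 9.50% and 4.45% of all genes did.

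The difference in response between the ages, adult minus young, passed for 0 of 43 members and 0% of all genes at 30, 60 and 90 minutes. Unadjusted p under 0.05 was found in 1, 2 and 3 members, or 2.33%, 4.65% and 6.98%, against 2.10%, 6.81% and 11.2% of all genes. The lowest adjusted p was for Cyp2r1 at 90 minutes, where the adult change was -0.88 and the young -0.09, a difference of -0.79 ± 0.24 (limma adjusted p = 0.404). Cyp1a2 at 60 minutes differed by -0.40 ± 0.13 (adjusted p = 0.704). That 8 members passed in adult liver at 60 minutes and none in young liver is therefore not shown to be a difference between the ages.

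Later against earlier ischemia passed for no member and for 0% of all genes, for 60 over 30 minutes and for 90 over 60 minutes in either age. In adult liver the members' median was -0.10 for 60 over 30 minutes and 0.08 for 90 over 60 minutes. The medians of all genes were -0.04 and 0.02. Of the 43 members 28 and 13 were below 0 (65.1% and 30.2%, against 59.9% and 44.3% of all genes). Unadjusted p under 0.05 was found in 8 and 3 adult members (18.6% and 6.98%, against 8.78% and 3.19% of all genes). It was found in 2 and 4 young members (4.65% and 9.30%, against 5.16% and 9.33% of all genes).

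The shift differed between arrays of one group. The median log2 ratio of the members was -0.14, -0.22 and -0.46 on the 3 adult 60-minute arrays, against 0.03, -0.03 and -0.01 on the adult sham arrays. It was -0.01, -0.05 and -0.22 at 90 minutes. A list of 14 hepatocyte markers moved on the same arrays: its array medians ran between -0.55 and -0.07 in adult liver at 60 minutes, -0.42 and -0.06 at 90 minutes and -0.03 and 0.04 in adult sham. All 14 were below 0 at 60 minutes with a median of -0.34, and 2 fell. Of 12 Kupffer cell markers 11 fell at 90 minutes (median -1.23) and 1 at 60 minutes (median -0.54). The medians of stellate, endothelial and cholangiocyte markers were -0.21, -0.22 and -0.11 at 60 minutes. At 90 minutes they were -0.35, -0.31 and -0.01. The part of any of these lists in the P450 results was not tested.

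**Figure D4:**
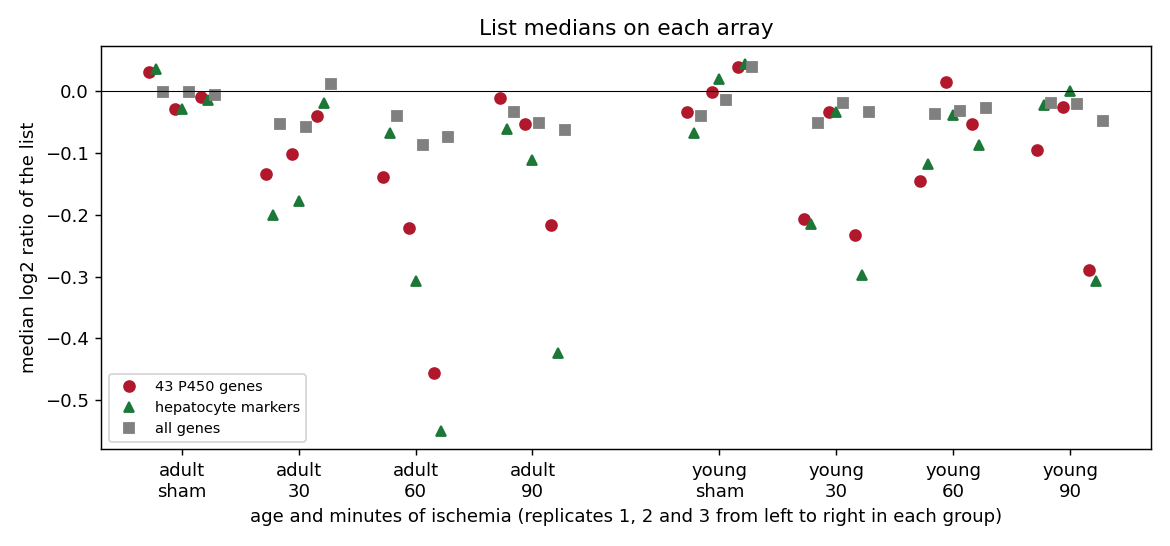
Median log2 ratio (vertical axis) of the 43 P450 genes (circles), 14 hepatocyte markers (triangles) and all 14351 genes (squares) on each of the 24 arrays, by age and minutes of ischemia. The lowest P450 median, -0.46, is on adult 60-minute replicate 3, where the hepatocyte marker median is -0.55.

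The count at 60 minutes in adult liver changed with single arrays, as did the calls over all genes. With 1 array left out, the log2 change there ran from -0.79 to -0.67 for Cyp2r1 and from -1.23 to -0.62 for Cyp3a13. Without adult sham replicate 1 or 3, or adult 60-minute replicate 2 or 3, no member passed. Over all genes these fits called 0.0976%, 0.0279%, 0.160% and 0.00697%. Without adult sham replicate 2, 3 members passed, beside 4.10% of all genes. Without adult 60-minute replicate 1, 14 members passed, beside 15.2% of all genes. Quantile normalization left none of the members past the threshold at 60 or 90 minutes. That step gives sham and ischemia arrays the same spread of ratios, although the ratios are scaled to sham. How far the loss of calls comes from the step itself was not tested. At 90 minutes none passed without adult sham replicate 3 or adult 90-minute replicate 1, and 1 passed without replicate 2 or replicate 3 of that group. These fits called 0.0488%, 0.118%, 0.634% and 1.85% of all genes. Within adult arrays that share the first part of the code in their titles, the member median for 60 minutes over sham was -0.16, -0.16 and -0.35 in the 3 such sets, and for 90 minutes over sham 0.00 and -0.12 in the 2 sets. Cyp2r1 was at -0.68, -0.64 and -0.90 in the sets at 60 minutes and -0.75 and -0.95 at 90 minutes. Cyp3a13 was at 0.08, -0.98 and -1.71 at 60 minutes.

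Genes of a redox partner list, of heme synthesis and of heme breakdown were set beside the members. Of 6 redox partners, Cyb5b (-0.74) and Pgrmc1 (-0.54), an endoplasmic reticulum protein that binds heme and P450s, fell in adult liver at 60 minutes, and Cyb5b (-0.68) fell at 90 minutes. Por, the P450 reductase itself, did not pass in any comparison: it read 0.453, 0.454 and 0.412 in young liver at 30 minutes, against 0.972, 1.29 and 0.74 in young sham (-1.15 ± 0.23, limma adjusted p = 0.0831). All 9 young ischemia arrays of Por lay below the young sham arrays. Of 8 heme synthesis genes 3 fell in adult liver at 60 minutes, Alad (-0.43) and Urod (-0.55) among them, and 1, Urod (-0.58), fell at 90 minutes, while Alas1, which catalyses the first step, stood at -0.73 ± 0.52 at 60 minutes. Of 4 heme breakdown genes Blvrb (-0.41) fell at 60 minutes and Hmox1 (-0.67) at 90 minutes.

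Of 18 receptors and transcription factors, Ahr and Nr1h3 (-0.46) fell in adult liver at 60 minutes and Rxra (-0.33), Nr3c1 (-0.46) and Hnf4a (-0.56) at 90 minutes. Nr1i2, which encodes PXR, read 0.645, 0.611 and 0.644 in young liver at 30 minutes, against 0.863, 1.10 and 1.03 in young sham (-0.65 ± 0.15, limma adjusted p = 0.108), and Nr1i3, which encodes CAR, was at -0.27 ± 0.12 there. Of 11 P450 genes from other families, the bile acid enzymes Cyp27a1 (-0.49) and Cyp39a1 (-1.13) fell in adult liver at 60 minutes and again at 90 minutes (-0.42 and -1.07). Among the 4 P450 genes left out by the rule, Cyp2b10 was at -3.44 and Cyp2c55 at -1.17 in adult liver at 60 minutes, both larger falls than that of any member. None of the genes of the redox, heme and receptor lists passed in young liver. Of all genes, 0.0557%, 0.0279% and 0.181% passed there at 30, 60 and 90 minutes. That absence is therefore not shown to be a difference between the ages. Falls in adult liver were called for 9.78% of all genes at 60 minutes and 6.28% at 90 minutes.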

How the data were processed

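RNA of 24 livers was labelled and hybridised to Affymetrix arrays, 1 array a sample. The deposited values of 26180 probe sets are ratios, each divided by the probe set's sham mean in that age; that scale was read from the values, and RMA is named per the submitters' processing notes. Their order of steps is not given in the sources used here. Probe sets were named through RefSeq accessions (15228 with a symbol), and 1 probe set was kept for each gene, giving 14351 genes. NM accessions were taken before NR and NR before predicted ones, then the lowest number. One linear model over the 8 groups was fitted with limma 3.58.1 in R 4.3.3 (lmFit and eBayes, 16 residual degrees of freedom), p-values were adjusted over all genes by the Benjamini-Hochberg method, and the fit was tested on simulated data. Array medians of the ratios ran from 0.955 to 1.02. Replicates are numbered in accession order. Named genes are members past an adjusted p of 0.05 and a fixed list of well-known members. Also named are the 3 highest and 3 lowest members of each comparison with sham or between ages. Cyp2c50, Cyp3a16 and Cyp4f15 were named after their values were seen. Cyp2c23 and Cyp2d12 are named only for the lack of a promoter entry. Some genes of the pathway lists are not reported here. The members and lists were chosen with earlier results of these data known. Alternatives changed the scaling, normalization, pseudocount (0.1), prior, array weights, samples, replicate block and arrays.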

Additional observations from a re-analysis of the deposited data

How the results depend on the processing

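For the 12 values of members that passed, 168 alternative values were computed: 82 stayed past the threshold, 86 did not, and 0 changed sign. Quantile normalization gives sham and ischemia arrays the same spread of ratios. It left no member called in adult liver at 60 minutes (0) or 90 minutes (0), where it called 0% and 0.0209% of all genes. It moved the 8 log2 changes at 60 minutes to between -0.60 and -0.18 (Cyp1a2 -0.26, Cyp2d10 -0.21, Cyp2j5 -0.29), and at 90 minutes Cyp2j5 to -0.34 and Cyp2d34 to 0.44. At 60 minutes the count of 8 became 4 with each probe set on its own, beside 2067 of 26180 probe sets. It became 5 with arrays centred on their median and 2 with arrays of that age only, beside 9.23% and 4.09% of all genes. Leaving out 1 array gave 0 to 14, beside 0.00697% to 15.2% of all genes. At 90 minutes the count of 4 became 1 with arrays of that age only, beside 0.328% of all genes. Leaving out 1 array there gave 0 to 3, beside 0.0488% to 5.62%. Array weights called 6 members in adult liver at 30 minutes (1 up, 5 down), 3 in young liver at 30 minutes, 2 in young liver at 90 minutes and 1 in the age difference at 90 minutes, where the unweighted fit called 0; the weighted fits called 14.6%, 2.17%, 5.79% and 9.08% of all genes in these comparisons. The weights of adult 30-minute replicates 1, 2 and 3 were 0.878, 4.24 and 0.259, so replicate 2 counted most in that weighted mean. With arrays of that age only, 1 was called in young liver at 30 minutes, beside 0.321% of all genes. A replicate block on the code that opens each title's bracket called 6 at 60 minutes and 5 at 90 minutes in adult liver. The blocked fit called 11.9% and 10.2% of all genes there. Replicate numbers were given in accession order; in adult sham, 30 and 60 minutes they coincide with that code. The cause of these moves was not tested. Having 3 arrays a group and ratios without signal over background limit what small changes can be seen.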
